A study of Mus musculus with 12 samples.

Results

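Chemokines are small secreted proteins that guide migrating cells, and the genes described here are the chemokines and chemokine receptors of the mouse uterus in culture. Members were taken by name: a gene was included when its only symbol began with Ccl, Cxcl, Cx3cl, Xcl, Ccr, Cxcr, Cx3cr, Xcr or Ackr followed directly by a digit. This gave 56 genes, 34 ligands and 22 receptors, of 19938 genes with a probe set of their own. Each gene was represented by its brightest probe set, and 2 of the 56, Ccl19 and Ccl25, had more than 1. A further 7 probe sets that carry several symbols, a chemokine among them, were not assigned to a gene.

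The arrays measured RNA from a primary co-culture of CD-1 mouse uterus. Epithelial sheets lay on matrigel-coated inserts above stromal cells on cover slips, both from uteri on day 4 of pseudopregnancy, and all wells spent a night in hormone-depleted medium with 1% charcoal-stripped serum. They were then given 10 nM estradiol (E2) or the ethanol vehicle at 0.01% for 2 days, and each layer was harvested by itself. The groups were epithelial E2, epithelial vehicle, stromal E2 and stromal vehicle, with 3 Affymetrix Mouse Gene 1.0 ST arrays each and 12 in all. No genetic alteration is named for any group. Nothing in the labels tells if a group's arrays stem from different animals or wells, so a p-value here measures only the spread between these arrays.

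Chemokines bind to heparan sulfate on cells and matrix and act through G protein-coupled receptors on leukocytes and other cells. The CXC ligands that carry an ELR motif draw neutrophils through Cxcr2, Cxcl9, Cxcl10 and Cxcl11 draw activated T cells through Cxcr3, and the CC ligands act on monocytes, eosinophils, dendritic cells and lymphocytes. Atypical receptors bind chemokines without G protein signalling and take them up. In the uterus, estrogen and progesterone are known to govern when neutrophils, macrophages and other leukocytes enter the tissue, and epithelial and stromal cells are both sources of chemokines.

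Values are log2 signals, on which a difference of 1 is a 2-fold change. A value after ± is the standard error of a log2 difference unless SD is written, each group has n = 3 arrays, and a difference passed when its adjusted p from limma was under 0.05. The number of arrays limits the precision. A level can be compared between groups for 1 gene but not between genes, since probe sets differ in brightness. Array medians over the tested probe sets lay between 7.38 and 7.43, and 28 of the 56 members had a group mean above that median in at least 1 group. The other 28 stayed at or below it in all 4 groups.

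Some arrays stood apart within their group. In both layers E2 replicates 1 and 2 were the closest pair, with an SD of the difference over all probe sets of 0.227 in epithelium and 0.173 in stroma. Epithelial E2 replicate 3 differed from its partners by an SD of 0.504 and 0.428, and epithelial vehicle replicate 2 by 0.563 and 0.602. The labels were checked against marker genes. All 12 epithelial markers passed as higher in the epithelial layer under E2 and under vehicle, and the mean over them was 10.13 to 10.41 in epithelial E2, 10.21 to 11.87 in epithelial vehicle, 7.09 to 7.25 in stromal E2 and 6.69 to 6.99 in stromal vehicle arrays. The 10 stromal markers were high in both layers, with array means of 10.59 to 10.66 in epithelial E2, 9.79 to 10.73 in epithelial vehicle, 10.77 to 11.02 in stromal E2 and 10.77 to 11.05 in stromal vehicle arrays. The mean over 14 macrophage and general leukocyte markers was 8.51 to 9.18 in epithelial E2, 8.39 to 8.60 in epithelial vehicle, 9.20 to 9.38 in stromal E2 and 9.48 to 9.56 in stromal vehicle arrays. Neutrophil, T and NK cell and B cell markers (7, 8 and 3 measured) had array means between 5.26 and 6.17, and limma called 0 of them for E2 in either layer, with 0 at an unadjusted p under 0.05. In such cultures, fewer cells of a type and less RNA per cell cannot be told apart.

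Few of these genes passed for E2. In the stromal layer 9 of the 56 members passed, 2 higher and 7 lower with E2, where 3.50% of the 23410 probe sets tested passed (1.52% higher, 1.98% lower). In the epithelial layer 3 passed, 1 higher and 2 lower, against 2.90% of all tested (1.77% higher, 1.12% lower). Of these, 2 genes fell in both layers, Cxcl5 and Cx3cl1. The median member moved little, by -0.0041 in stroma and 0.03 in epithelium, against 0.03 and 0.03 over all probe sets tested. Counting instead the members whose E2 and vehicle arrays did not overlap gave 4 higher and 10 lower in stroma, where 15.9% and 14.6% of all tested did so. In epithelium it gave 2 higher and 7 lower, against 6.95% and 8.04% of all tested.

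**Figure D1:**
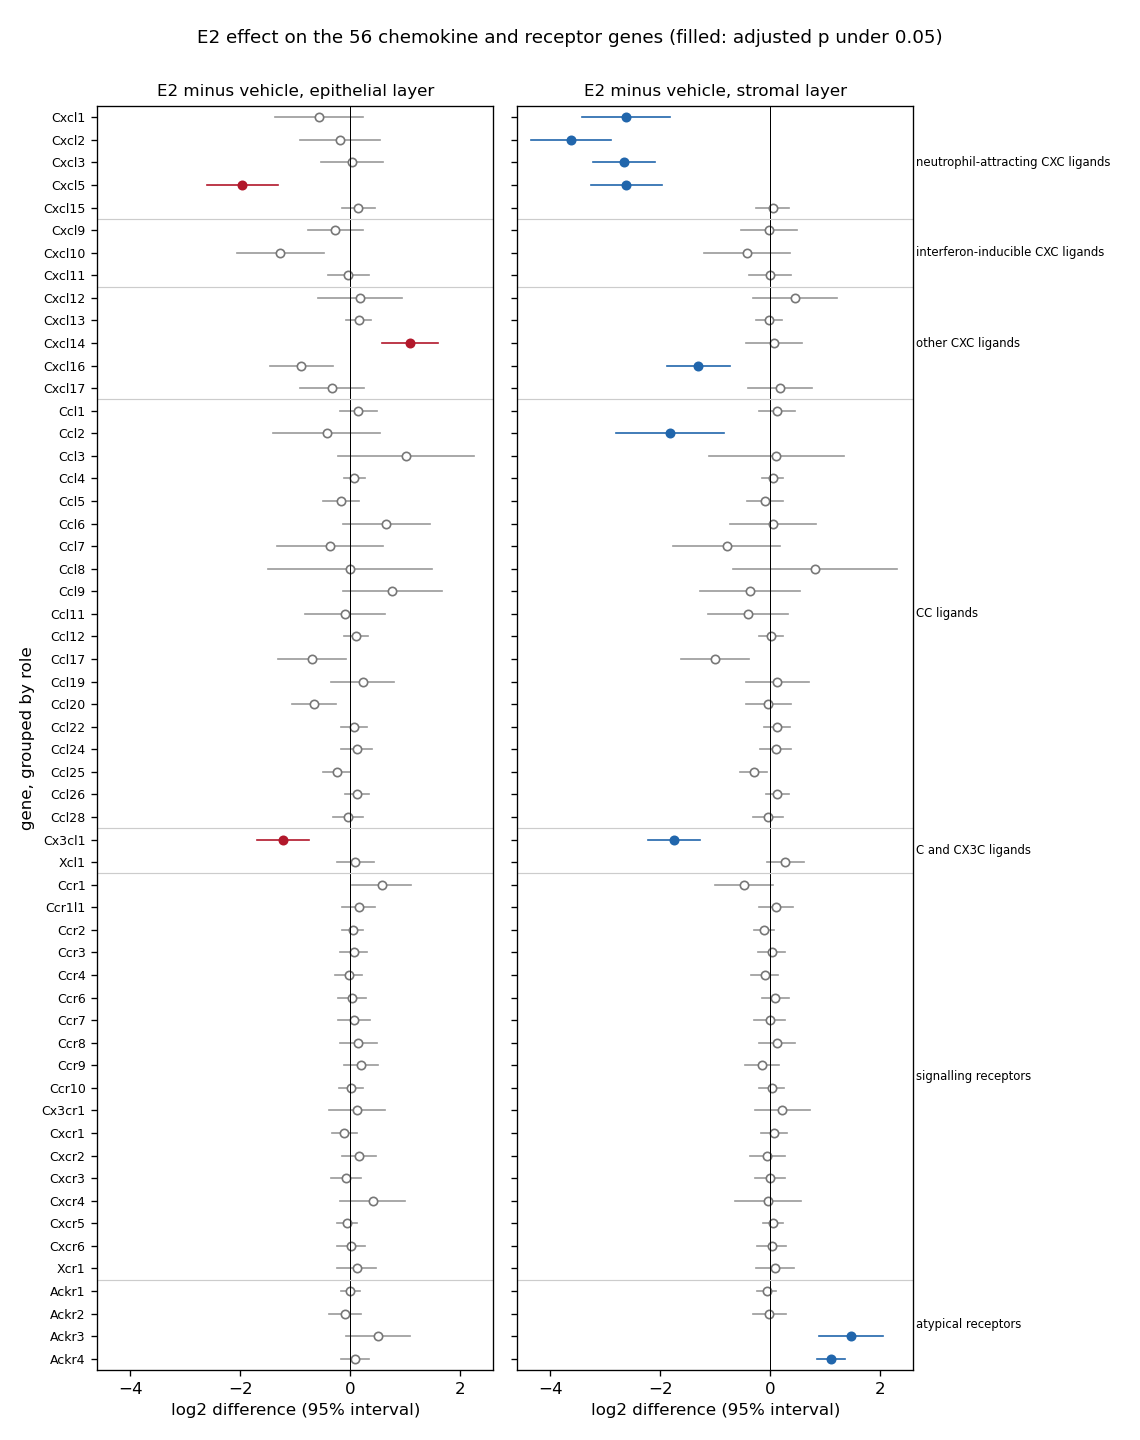
Log2 difference between E2 and vehicle (horizontal axis, point and 95% interval from limma) for each of the 56 genes, grouped by role from top to bottom, in the epithelial layer (left) and the stromal layer (right). Filled points passed at an adjusted p under 0.05: Cxcl5, Cx3cl1 and Cxcl14 in epithelium, and Cxcl1, Cxcl2, Cxcl3, Cxcl5, Cxcl16, Ccl2, Cx3cl1, Ackr3 and Ackr4 in stroma, while all 18 signalling receptors are open in both panels.

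In the stroma the neutrophil attractants moved most. Of the 5 ligands of this class measured, Cxcl1, Cxcl2, Cxcl3 and Cxcl5 fell with E2, and Cxcl15, at low signal in all groups, did not pass. The class median was -2.63, against 0.03 over all probe sets tested. Cxcl2, a strong neutrophil attractant made by macrophages and connective tissue cells, had 7.33, 7.34 and 6.62 in stromal E2 arrays, against 10.89, 10.38 and 10.91 in stromal vehicle arrays. Every E2 array lay more than 3 log2 units under every vehicle array. The fall was -3.63 ± 0.33, or 12.4-fold (adjusted p = 0.000153).

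Cxcl3, its close relative, had 6.89, 6.85 and 6.30 in stromal E2 arrays and 9.36, 9.08 and 9.60 in stromal vehicle arrays. The groups were again far apart, with a fall of -2.66 ± 0.26 (adjusted p = 0.000223). Cxcl1, the keratinocyte chemoattractant of the mouse, had 8.66, 8.62 and 8.41 with E2 and 11.57, 10.63 and 11.37 with vehicle. Vehicle replicate 2 was the lowest of its group and still about 2 units above the E2 arrays, and the fall was -2.63 ± 0.36 (adjusted p = 0.00202). Cxcl5, which attracts neutrophils and in the mouse is known as LIX, had 5.69, 5.87 and 5.86 with E2 and 8.91, 8.12 and 8.24 with vehicle, and fell by 2.62 ± 0.29 on the log2 scale (adjusted p = 0.000552). Cxcl15, a ligand best known from the mouse lung, had means of 4.55 ± 0.08 with E2 and 4.51 ± 0.21 with vehicle (SD) and a difference of 0.05 ± 0.14 (95% interval -0.25 to 0.34). Over the 12 arrays of both layers Cxcl15 ran from 4.31 to 4.85, below the array medians. Whether a fall could have been measured there was not tested. The 4 falls passed without each of the 6 stromal arrays in turn and in all 10 other alternatives run.

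The leukocyte marker mean was also lower in stromal E2 than in stromal vehicle arrays, with 9 of the 14 markers lower and 5 higher. Limma called 0 of them in this layer, with 4 at an unadjusted p under 0.05: Ptprc at -0.59, Cd14 at -0.69 and Aif1 at -0.42 were lower, and Csf1r was higher at 0.48. Of the markers of other cell types, the endothelial Cdh5 fell by 1.497 on the log2 scale, and the epithelial Krt7 and the smooth muscle gene Cnn1 rose by 1.32 and 0.60. The part of these shifts in the chemokine differences was not tested.

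In the epithelial layer the class split. Cxcl5 fell there too, with 6.55, 6.53 and 6.12 in E2 arrays against 8.25, 7.77 and 9.08 in vehicle arrays. The groups did not overlap, and the fall was -1.96 ± 0.29 (adjusted p = 0.00523). With the 6 epithelial arrays alone its adjusted p was 0.0811, and with E2 replicates 1 and 2 averaged 0.0551. On the same arrays the epithelial marker mean was 10.30 ± 0.15 with E2 and 11.13 ± 0.84 with vehicle (SD). Of the 12 markers 7 were lower at an unadjusted p under 0.05, with a list median of -0.81, and Cldn4 alone passed, at -1.24. The mesothelial marker Msln and the smooth muscle marker Actg2 also fell in this layer, by 1.32 and 1.02, the endothelial Kdr rose by 1.33, and the part of these shifts in the epithelial chemokine differences was not tested. Cxcl1 had 9.56, 9.41 and 9.27 with E2 and 9.97, 9.11 and 10.89 with vehicle, and the widely spread vehicle arrays enclosed the E2 arrays. Its difference was -0.57 ± 0.36 (adjusted p = 0.507). Cxcl2 had 7.20, 7.34 and 6.20 with E2 and 7.64, 6.65 and 7.04 with vehicle, a difference of -0.20 ± 0.33, and Cxcl3 had means of 6.48 ± 0.14 and 6.45 ± 0.58 (SD), a difference of 0.02 ± 0.26. Both groups overlapped for these genes.

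The difference between the layers in the E2 effect was itself tested. It passed for 3 of the 56 members, 2 with a more positive and 1 with a more negative effect in epithelium, against 0.910% of all tested (0.641% and 0.269%). Cxcl2 and Cxcl3 were the positive ones, with 3.43 ± 0.47 and 2.69 ± 0.36 (adjusted p = 0.00857 for both). Both passed without any 1 of the 12 arrays, and neither passed when E2 replicates 1 and 2 were averaged (0.0869 and 0.0875), which leaves fewer samples. For Cxcl1 the difference of effects was 2.05 ± 0.51 (adjusted p = 0.107), and without epithelial vehicle replicate 3 it was 2.50 (adjusted p = 0.00725). For Cxcl5 it was 0.65 ± 0.42, with an interval of -0.26 to 1.56.

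**Figure D2:**
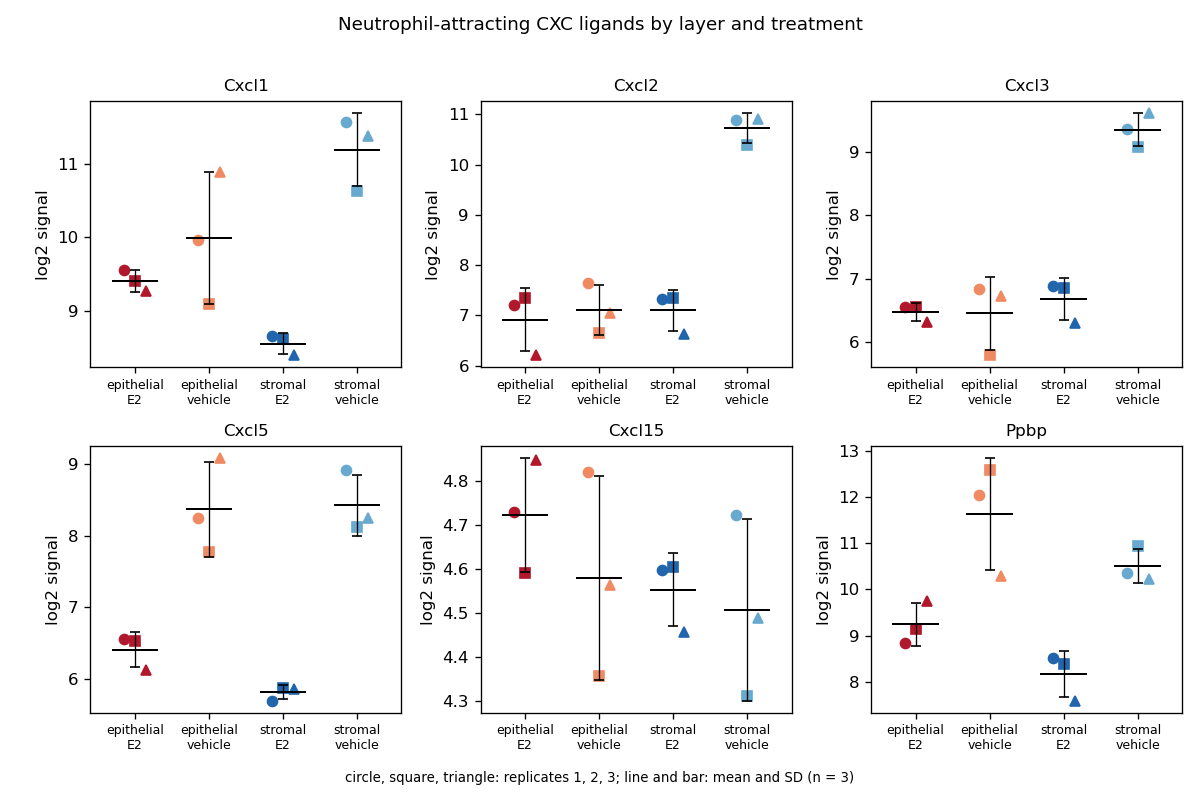
Log2 signal on each array (vertical axis) for the 5 neutrophil-attracting CXC ligands and Ppbp, their neighbour on chromosome 5, in epithelial E2, epithelial vehicle, stromal E2 and stromal vehicle arrays; circle, square and triangle are replicates 1, 2 and 3, and the line and bar are the mean and SD. For Cxcl1, Cxcl2, Cxcl3 and Cxcl5 the 3 stromal E2 arrays lie under the 3 stromal vehicle arrays. Cxcl15 shows no such gap and stays below the array median in all groups.

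These ligands are neighbours on chromosome 5. In the RefSeq gene table (GRCm38.p6) Cxcl5, Ppbp, Pf4, Cxcl3, Cxcl15, Cxcl1 and Cxcl2 follow one another as 7 protein-coding genes with no other between them. In this order their stromal E2 differences were -2.62, -2.35, -0.90, -2.66, 0.05, -2.63 and -3.63. The Cxcl15 value comes from low signal, below the array median in all groups. Ppbp, which encodes the platelet chemokine Cxcl7, is not a member by name; it passed in stroma (adjusted p = 0.0239) and fell by 2.39 on the log2 scale in epithelium (adjusted p = 0.0276), whereas Pf4, the platelet factor also called Cxcl4, did not pass in stroma (adjusted p = 0.181). Epithelial Ppbp was 8.84, 9.14 and 9.75 with E2 and 12.04, 12.59 and 10.28 with vehicle, so that vehicle replicate 3, the array with the lowest epithelial marker mean of its group, was the lowest. Probe sequences were not analysed here, and cross-hybridization between family members was not tested.

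Promoters are shown for Cxcl1, Cxcl2 and Cxcl3, which fell in stroma, and for Cx3cl1 because it fell in both layers. They are the 250 bases before the RefSeq transcript start (GRCm38.p6, plus strand), 5′ to 3′, and capitals mark matches to the consensus of NF-kappaB sites, the binding sequence of the main transcription factor of inflammatory chemokine induction.
Cxcl1, chr5:90890995-90891244: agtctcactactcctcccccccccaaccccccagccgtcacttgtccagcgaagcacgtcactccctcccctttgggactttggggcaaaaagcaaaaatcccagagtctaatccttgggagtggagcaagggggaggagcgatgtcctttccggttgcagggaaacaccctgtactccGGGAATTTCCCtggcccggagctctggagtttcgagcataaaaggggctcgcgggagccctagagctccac
Cxcl2, chr5:90903649-90903898: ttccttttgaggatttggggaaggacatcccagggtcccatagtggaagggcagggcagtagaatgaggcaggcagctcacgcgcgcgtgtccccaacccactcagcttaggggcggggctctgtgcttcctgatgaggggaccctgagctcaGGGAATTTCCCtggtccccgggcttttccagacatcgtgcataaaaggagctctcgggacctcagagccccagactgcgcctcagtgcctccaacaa
Cxcl3, chr5:90785851-90786100: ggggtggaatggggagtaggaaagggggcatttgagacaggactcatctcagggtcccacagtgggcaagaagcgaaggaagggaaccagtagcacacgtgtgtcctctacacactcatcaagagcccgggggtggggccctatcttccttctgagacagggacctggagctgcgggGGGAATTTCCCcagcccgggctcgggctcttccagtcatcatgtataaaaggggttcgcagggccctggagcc
Cx3cl1, chr8:94771930-94772179: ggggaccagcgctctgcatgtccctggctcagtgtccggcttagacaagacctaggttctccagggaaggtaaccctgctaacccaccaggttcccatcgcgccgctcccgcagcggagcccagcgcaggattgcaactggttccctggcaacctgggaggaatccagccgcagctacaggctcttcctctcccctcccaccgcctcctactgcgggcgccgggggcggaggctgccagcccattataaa

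Cxcl1, Cxcl2 and Cxcl3 carried the same 11 bases, GGGAATTTCCC, beginning at -71, -97 and -73 from their starts, and Cx3cl1 held no match. Each of the 3 runs is made of 2 overlapping matches, 1 base apart. Windows of 300 bases, 250 before to 50 after the start, were available for 42 of the 56 members, with 44 windows in all, and both strands were searched. Cxcl5, Cxcl16 and Ccl2, which also fell in stroma, are not among the 42, so the shared letters were not looked for there. The NF-kappaB consensus occurred in 11 of the 44 windows (25%), against 2779 of 32851 windows of the same length in the whole table (8.46%), and GGGAATTTCCC in 3 of the 44 against 14 of 32851 (0.0426%). The 11 bases were read from the Cxcl1 window, which is among the 44, so their count there was partly set in advance and is no test. Besides Cxcl1, Cxcl2 and Cxcl3, the genes with a consensus match were Ackr2, Ccl1, Ccl9, Ccl20, Ccr1, Ccr3, Ccr6 and Cxcl10, of which none passed for E2 in either layer. The letters of the full estrogen response element, GGTCANNNTGACC, were in 0 of the 44 windows and in 23 of 32851 (0.07%). A match is a description of these letters and not a shown binding site.

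The interferon-inducible ligands did not pass in either layer. Of Cxcl9, Cxcl10 and Cxcl11, limma called 0 for E2, with 1 at an unadjusted p under 0.05 in epithelium and 0 in stroma. That 1 was Cxcl10, which had 7.88, 7.49 and 7.76 in epithelial E2 arrays and 8.46, 8.47 and 10.01 in epithelial vehicle arrays. The groups did not overlap, vehicle replicate 3 stood far above its partners, and the difference was -1.27 ± 0.36 (adjusted p = 0.0866). In stroma Cxcl10 had 7.11, 7.06 and 6.81 with E2 and 7.89, 7.04 and 7.34 with vehicle, overlapping, with a difference of -0.43 ± 0.36. Cxcl9 differed by -0.27 ± 0.23 in epithelium and -0.02 ± 0.23 in stroma, and Cxcl11 by -0.036 ± 0.17 and -0.0027 ± 0.17.

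Among the other CXC ligands, Cxcl14 and Cxcl16 each passed in 1 layer. Cxcl14, made by epithelia and fibroblasts and known to attract monocytes and dendritic cell precursors, had 9.92, 9.78 and 10.42 in epithelial E2 arrays and 8.48, 9.03 and 9.37 in epithelial vehicle arrays. All E2 arrays lay above all vehicle arrays, and the rise was 1.08 ± 0.23 (adjusted p = 0.0323). On the same arrays the mean of the 10 stromal markers was 10.63 ± 0.03 with E2 and 10.18 ± 0.49 with vehicle (SD). Limma called 0 of these markers, with Lum at 2.49, Pdgfra at 1.13 and Dcn at 0.82 higher at an unadjusted p under 0.05, and their part in the rise was not tested. The call of Cxcl14 was lost without any 1 of 5 arrays. Without epithelial E2 replicates 1, 2 and 3 in turn it was 1.14, 1.21 and 0.89 (adjusted p = 0.0941, 0.0677 and 0.0541), and without vehicle replicates 1 and 2 it was 0.84 and 1.12 (0.0866 and 0.0538). In stroma Cxcl14 had 11.83, 11.81 and 12.16 with E2 and 11.59, 12.12 and 11.88 with vehicle, overlapping, and differed by 0.07 ± 0.23. The difference of its effects, 1.01 ± 0.33, did not pass (adjusted p = 0.239).

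Cxcl16, a transmembrane chemokine that attracts Cxcr6-bearing lymphocytes once shed from the cell surface, had 7.72, 8.01 and 7.86 in stromal E2 arrays and 9.45, 8.74 and 9.32 in stromal vehicle arrays. The groups did not overlap, and the fall was -1.31 ± 0.26 (adjusted p = 0.0169). Without stromal E2 replicates 1, 2 and 3 in turn the difference was -1.24, -1.38 and -1.31 (adjusted p = 0.0818, 0.0515 and 0.0605), and without vehicle replicates 1 and 3 it was -1.16 and -1.23 (0.0842 and 0.0783). With E2 replicates 1 and 2 averaged the stromal adjusted p was 0.101. In epithelium Cxcl16 had 10.34, 10.30 and 9.98 with E2 and 11.05, 11.70 and 10.55 with vehicle, which do not overlap. That difference, -0.89 ± 0.26, did not pass (adjusted p = 0.0971), and without epithelial vehicle replicate 3, the array with the lowest epithelial marker mean of its group, it was -1.17 (adjusted p = 0.0146). The part of the marker shift in it was not tested.

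Cxcl12, which holds Cxcr4-bearing cells in tissues, had 8.28, 8.29 and 8.49 in epithelial E2 arrays and 7.71, 7.90 and 8.92 in epithelial vehicle arrays. The vehicle arrays enclosed the E2 arrays, with a difference of 0.18 ± 0.35. In stroma it had 7.24, 7.27 and 8.01 with E2 and 7.04, 6.48 and 7.67 with vehicle, overlapping, with a difference of 0.44 ± 0.35 (95% interval -0.32 to 1.20). Cxcl13, which draws B cells to lymphoid follicles, differed by 0.15 ± 0.11 in epithelium and -0.02 ± 0.11 in stroma, and Cxcl17, a mucosal chemokine, by -0.33 ± 0.27 and 0.18 ± 0.27.

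The CC ligands were the largest class, with 19 genes, and 1 of them passed. Ccl2, which recruits monocytes through Ccr2, had 9.63, 9.80 and 9.41 in stromal E2 arrays and 12.49, 10.13 and 11.69 in stromal vehicle arrays. All vehicle arrays were above all E2 arrays, but vehicle replicate 2 was only just so, and the fall was -1.82 ± 0.44 (adjusted p = 0.0481). Its adjusted p was the largest of the 9 in stroma. Of the 10 alternatives that left out no array in turn, 5 kept the call. The adjusted p was 0.0598 after quantile normalization, 0.0887 over all probe sets of the table and 0.0667 with the 6 stromal arrays alone. With the replicate number as a block it was 0.081, and with E2 replicates 1 and 2 averaged 0.196. Without stromal E2 replicates 1, 2 and 3 the difference was -1.83, -1.92 and -1.72 (adjusted p = 0.148, 0.121 and 0.159). Without vehicle replicates 1 and 3 it was -1.30 and -1.70 (0.143 and 0.178), and without vehicle replicate 2 it was -2.48 and passed. Without that last array the difference of the effects was 2.05 (adjusted p = 0.0254), against 1.39 ± 0.63 with all arrays (adjusted p = 0.465). In epithelium Ccl2 had 12.06, 11.77 and 11.66 with E2 and 12.37, 11.91 and 12.51 with vehicle, overlapping, with a difference of -0.43 ± 0.44.

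On chromosome 11 Ccl2 heads a run of 6 neighbouring members, Ccl2, Ccl7, Ccl11, Ccl12, Ccl8 and Ccl1. Ccl7, a second monocyte attractant, had 11.10, 11.03 and 9.92 in stromal E2 arrays and 12.44, 10.37 and 11.62 in stromal vehicle arrays, a difference of -0.79 ± 0.44 (adjusted p = 0.562). As for Ccl2, vehicle replicate 2 was the lowest of its group and vehicle replicate 1 the highest, and here the groups overlapped. Ccl11, an eosinophil attractant, differed by -0.41 ± 0.33 in stroma, Ccl12 by 0.01 ± 0.10 and Ccl8, another monocyte attractant, by 0.82 ± 0.68. Ccl8 spread widely within groups, from 5.89 to 8.94 in epithelial vehicle arrays and from 6.63 to 8.64 in stromal vehicle arrays.

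Ccl20, the ligand of Ccr6 on dendritic cells and Th17 cells, had 7.22, 7.29 and 7.30 in epithelial E2 arrays and 7.63, 8.06 and 8.11 in epithelial vehicle arrays. The groups did not overlap, and the difference of -0.66 ± 0.18 did not pass (adjusted p = 0.081). In stroma it had 7.27, 7.68 and 7.03 with E2 and 7.63, 7.13 and 7.32 with vehicle, overlapping, and differed by -0.03 ± 0.18. Ccl17, a Ccr4 ligand of dendritic cells, was lower with E2 on every array of both layers without passing in either, at -0.70 ± 0.28 in epithelium (adjusted p = 0.241) and -1.005 ± 0.28 in stroma (adjusted p = 0.0919). Ccl5, a T cell and monocyte attractant, had 7.67, 7.49 and 8.03 in epithelial E2, 8.05, 7.71 and 7.96 in epithelial vehicle, 7.61, 7.48 and 7.60 in stromal E2 and 7.69, 7.44 and 7.84 in stromal vehicle arrays. Its differences of -0.18 ± 0.15 and -0.10 ± 0.15 lay within the spread of overlapping groups.

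Ccl3, Ccl6 and Ccl9, chemokines of macrophages and other myeloid cells that act through Ccr1, shared a pattern between arrays. Ccl6 had 11.52, 11.59 and 10.34 in epithelial E2 arrays and 10.92, 9.73 and 10.85 in epithelial vehicle arrays, a difference of 0.65 ± 0.36 (adjusted p = 0.42). Ccl9 had 9.69, 9.97 and 8.75 with E2 and 9.17, 7.71 and 9.24 with vehicle, a difference of 0.76 ± 0.41 (adjusted p = 0.407), and Ccl3 had 9.83, 9.99 and 8.46 with E2 and 9.03, 7.23 and 9.004 with vehicle, a difference of 1.01 ± 0.56 (adjusted p = 0.43). In all 3 genes E2 replicates 1 and 2 were the highest epithelial arrays and vehicle replicate 2 the lowest. The leukocyte marker mean was 9.14, 9.18 and 8.51 in epithelial E2 arrays and 8.56, 8.39 and 8.60 in epithelial vehicle arrays, so it was highest on the same 2 arrays and lowest on the same vehicle array. Of the 14 markers, Csf1r alone passed in epithelium, at 1.01 (adjusted p = 0.00317), and the part of the markers in these chemokine values was not tested.

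**Figure D3:**
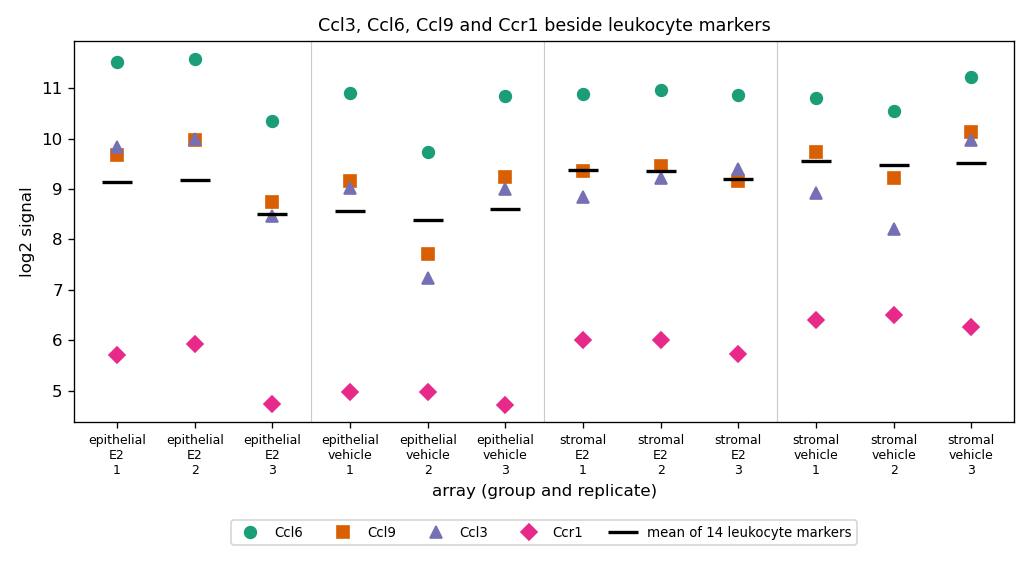
Log2 signal (vertical axis) of Ccl3, Ccl6, Ccl9 and Ccr1 on each of the 12 arrays (horizontal axis, by group and replicate), with the mean of 14 leukocyte markers as a black bar. In the epithelial layer all 4 genes and the marker mean are highest on E2 replicates 1 and 2, where Ccl6 is 11.52 and 11.59.

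The remaining CC ligands showed small differences. Ccl25, a thymic and gut chemokine, was lower with E2 on every array of both layers by a small margin, with -0.25 ± 0.11 in epithelium and -0.30 ± 0.11 in stroma, and did not pass (adjusted p = 0.302 and 0.233). Its second probe set gave -0.31 and -0.32. Ccl19, a lymph node chemokine measured by 5 probe sets, differed by 0.21 to 0.23 in epithelium and 0.12 to 0.13 in stroma across them. Over all 19 CC ligands the median difference was 0.06 in epithelium and 0.01 in stroma, and limma called 0 of them in epithelium, with 3 at an unadjusted p under 0.05.

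Of the C and CX3C ligands, Cx3cl1 (fractalkine), a membrane-anchored chemokine that binds monocytes and NK cells through Cx3cr1, fell in both layers. It had 8.13, 8.001 and 8.33 in stromal E2 arrays and 10.26, 9.53 and 9.91 in stromal vehicle arrays, with no overlap and a fall of -1.75 ± 0.22 (adjusted p = 0.00109). In epithelium it had 9.14, 9.03 and 9.69 with E2 and 10.31, 10.83 and 10.38 with vehicle. These too did not overlap, and the fall was -1.22 ± 0.22 (adjusted p = 0.0133). The stromal fall passed without each array in turn, whereas the epithelial one was -1.15 and -1.10 without E2 replicates 1 and 2 (adjusted p = 0.0711 and 0.0728). With the 6 epithelial arrays alone the epithelial adjusted p was 0.0942, and with E2 replicates 1 and 2 averaged 0.130. The epithelial arrays are the ones on which Cldn4, Msln and Actg2 fell as well, and the part of those shifts in this fall was not tested. The effects differed by 0.53 ± 0.31 between the layers (adjusted p = 0.665, 95% interval -0.15 to 1.20). On chromosome 8 Cx3cl1 lies between Ccl22 and Ccl17. Xcl1, the lymphotactin of T and NK cells, differed by 0.09 ± 0.15 in epithelium and 0.28 ± 0.15 in stroma.

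**Figure D4:**
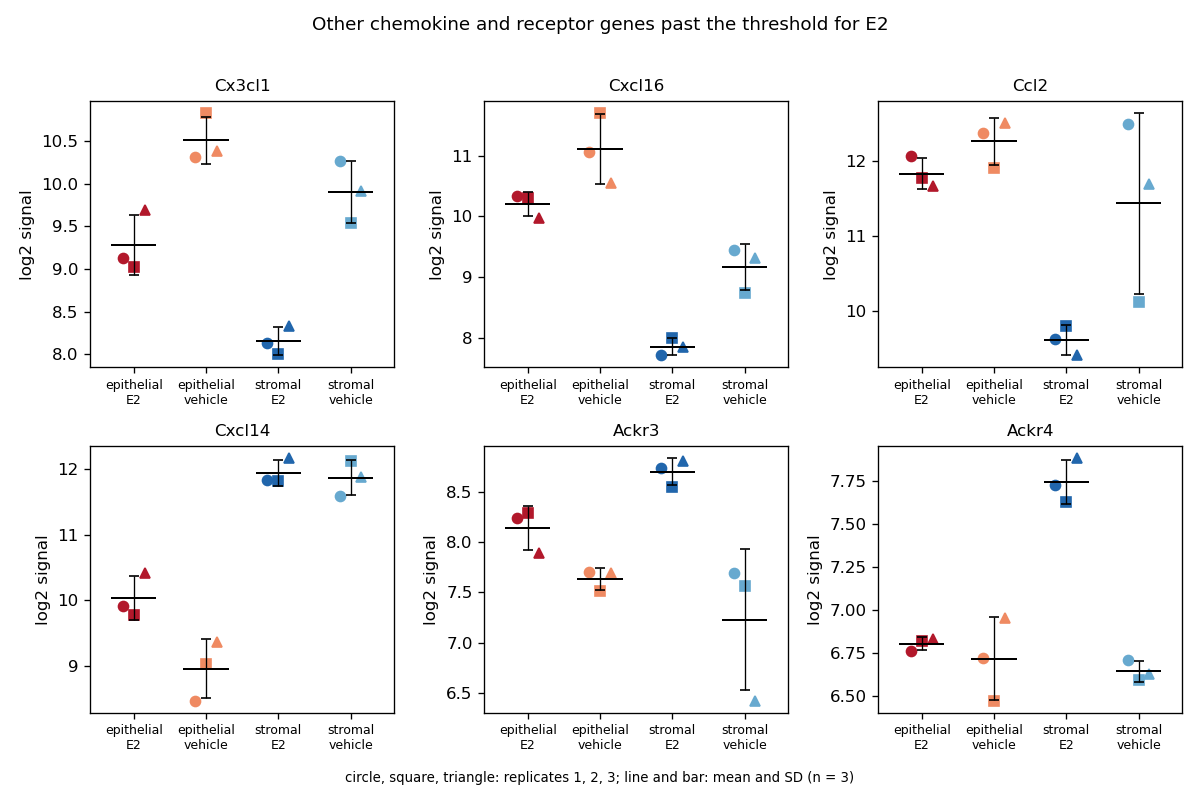
Log2 signal on each array (vertical axis) for the other members that passed for E2, Cx3cl1, Cxcl16, Ccl2, Cxcl14, Ackr3 and Ackr4, in epithelial E2, epithelial vehicle, stromal E2 and stromal vehicle arrays; circle, square and triangle are replicates 1, 2 and 3, and the line and bar are the mean and SD. Ackr4 stands at 7.62 to 7.88 in stromal E2 arrays and at 6.95 or less on all other arrays, and Ccl2 spreads from 10.13 to 12.49 over the stromal vehicle arrays.

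None of the 18 signalling receptors passed for E2. In limma 0 were called in either layer, with 1 at an unadjusted p under 0.05 in epithelium (Ccr1) and 0 in stroma, and differences ran from -0.11 to 0.57 and from -0.48 to 0.22. Cxcr2, the neutrophil receptor of Cxcl1, Cxcl2, Cxcl3 and Cxcl5, had 4.36, 4.30 and 4.37 in stromal E2 arrays and 4.45, 4.42 and 4.32 in stromal vehicle arrays. Ccr2, the receptor of Ccl2, had 4.72, 4.66 and 4.60 with E2 and 4.79, 4.87 and 4.65 with vehicle. Cxcr6, the receptor of Cxcl16, had 5.15, 4.96 and 5.01 with E2 and 5.08, 4.98 and 4.98 with vehicle. These groups overlapped, and the 3 receptors were among the 28 genes at or below the array median in every group.

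Cx3cr1, the receptor of Cx3cl1, had 8.36, 8.25 and 8.07 in stromal E2 arrays and 8.25, 7.92 and 7.86 in stromal vehicle arrays. In epithelium it had 7.87, 7.80 and 8.23 with E2 and 8.03, 7.24 and 8.27 with vehicle. The groups overlapped in both layers. Cxcr4, the receptor of Cxcl12, had 8.39, 8.77 and 9.23 in epithelial E2 arrays and 8.36, 9.03 and 7.79 in epithelial vehicle arrays, overlapping, with a difference of 0.40 ± 0.27 (adjusted p = 0.542). In stroma Cxcr4 had 7.66, 7.61 and 7.51 with E2 and 7.54, 7.69 and 7.67 with vehicle, a difference of -0.04 ± 0.27.

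Cxcr3, the receptor of the interferon-inducible ligands, had 6.98, 6.86 and 7.22 in epithelial E2 arrays and 7.18, 6.98 and 7.14 in epithelial vehicle arrays. Its stromal values were 7.03, 6.90 and 6.73 with E2 and 6.96, 6.72 and 6.998 with vehicle. Ccr6, the receptor of Ccl20, lay between 6.14 and 6.30 in epithelial E2, 5.97 and 6.37 in epithelial vehicle, 6.16 and 6.29 in stromal E2 and 5.95 and 6.24 in stromal vehicle arrays. Groups overlapped for both receptors. In epithelium Cxcr2 had 4.47, 4.70 and 4.95 with E2 and 4.46, 4.33 and 4.86 with vehicle, and Ccr2 had 4.58, 4.63 and 4.68 with E2 and 4.66, 4.50 and 4.62 with vehicle, again overlapping.

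Ccr1, a receptor of Ccl3 and Ccl9 on myeloid cells, had the highest of these differences in epithelium and the lowest in stroma. It had 5.71, 5.92 and 4.73 in epithelial E2 arrays and 4.97, 4.97 and 4.71 in epithelial vehicle arrays, a difference of 0.57 ± 0.24 (adjusted p = 0.273). E2 replicate 3 lay with the vehicle arrays, as its leukocyte marker mean did. In stroma it had 5.997, 5.997 and 5.72 with E2 and 6.40, 6.50 and 6.26 with vehicle, which do not overlap, and the difference of -0.48 ± 0.24 did not pass (adjusted p = 0.484). The stromal leukocyte marker mean was lower in E2 arrays as well. Without epithelial E2 replicate 3 Ccr1 passed in epithelium, at 0.93 (adjusted p = 0.00294), and for the difference of effects, at 1.41 (0.00351), and the part of the markers in this was not tested.

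Of the 4 atypical receptors, 2 rose in stroma. Ackr4, which takes up Ccl19, Ccl21 and Ccl25, had 7.72, 7.62 and 7.88 in stromal E2 arrays and 6.71, 6.59 and 6.63 in stromal vehicle arrays. The groups were well apart, and the rise was 1.10 ± 0.12 (adjusted p = 0.000372). Ackr3, which takes up Cxcl12 and Cxcl11, had 8.74, 8.55 and 8.81 with E2 and 7.69, 7.57 and 6.42 with vehicle. Again the groups did not overlap, vehicle replicate 3 was the lowest by over 1 unit, and the rise was 1.47 ± 0.27 (adjusted p = 0.0104). Both rises passed without each stromal array in turn, and with E2 replicates 1 and 2 averaged the adjusted p of Ackr3 was 0.0702.

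In epithelium limma called 0 of the 4 atypical receptors, with 0 at an unadjusted p under 0.05. Ackr4 had 6.76, 6.82 and 6.83 with E2 and 6.72, 6.47 and 6.95 with vehicle, overlapping, with a difference of 0.09 ± 0.12. The E2 effects on Ackr4 differed between the layers by -1.01 ± 0.17 (adjusted p = 0.0168). Without epithelial E2 replicate 1 or 2, stromal E2 replicate 1 or stromal vehicle replicate 3 this was -0.99, -1.02, -1.02 and -1.01 (adjusted p = 0.0578, 0.0575, 0.057 and 0.0564). Ackr3 had 8.24, 8.29 and 7.89 in epithelial E2 arrays and 7.70, 7.51 and 7.69 in epithelial vehicle arrays, which do not overlap, and its difference of 0.50 ± 0.27 did not pass (adjusted p = 0.393), nor did the difference of its effects (-0.97 ± 0.38, adjusted p = 0.359). Ackr1, a chemokine-binding protein of red cells and venules, and Ackr2, which takes up inflammatory CC ligands, were near their vehicle level in both layers, with Ackr2 at -0.10 in epithelium and -0.016 in stroma and Ackr1 at 7e-05 and -0.064.

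The layers also differed in their chemokines without hormone. Under vehicle 11 of the 56 members passed between epithelium and stroma, 6 higher and 5 lower in epithelium, where 21.4% of all tested passed (7.27% higher, 14.1% lower). The share of members, 19.6%, was near that background. Cxcl16 was 1.93 ± 0.26 higher in epithelium (adjusted p = 0.000424), Cxcl10 1.56 ± 0.36 (0.00942), Cxcl17 1.48 ± 0.27 (0.00232), Cxcl9 1.01 ± 0.23 (0.00869), Cxcl12 1.11 ± 0.35 (0.0407) and Ccl20 0.57 ± 0.18 (0.0447). The groups overlapped for Ccl20 and were apart for the other 5. In this direction 11 of the 56 members and 14.6% of all tested were apart. Lower in epithelium were Cxcl2 at -3.62 ± 0.33 (adjusted p = 3.71e-05), Cxcl14 at -2.90 ± 0.23 (1.51e-05), Cxcl3 at -2.89 ± 0.26 (3.14e-05), Ccr1 at -1.50 ± 0.24 (0.00129) and Cxcl1 at -1.20 ± 0.36 (0.0356). For Cxcl1, whose epithelial vehicle arrays ran from 9.11 to 10.89, the groups overlapped.

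Some of these calls turned on single vehicle arrays. The Cxcl1 difference was -1.19 and -0.76 without epithelial replicates 1 and 2 (adjusted p = 0.0888 and 0.0667) and -1.01 and -1.11 without stromal replicates 1 and 3 (0.127 and 0.111). The Cxcl12 difference was 0.74 without epithelial replicate 3 and 1.10 and 0.82 without stromal replicates 1 and 2 (adjusted p = 0.132, 0.0992 and 0.166). For Ccl20 it was 0.51 and 0.48 without epithelial replicates 2 and 3 and 0.46 and 0.55 without stromal replicates 2 and 3 (adjusted p = 0.0793, 0.133, 0.172 and 0.117), and with array weights 0.37. The differences above come from fits without pairing by replicate number. With the replicate number as a block, which the vehicle arrays of the layers met the criterion for, 12 members passed. Of all tested, 19.6% did so. Ccl20 did not pass with the block (adjusted p = 0.087), and Ccl9 and Cxcr1 did. Leukocyte markers were lower in epithelium under vehicle in 10 of 14 cases and higher in 1, and all 4 smooth muscle markers were lower. Of the 4 mesothelial markers, Msln, Upk3b and Lrrn4 passed as higher in epithelium, by 4.19, 3.15 and 2.33, as did the endothelial Kdr by 2.34. Their part in the layer differences was not tested.

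Under E2 9 of the 56 members passed, 7 higher and 2 lower in epithelium, where 13.6% of all tested passed (4.43% higher, 9.18% lower). Cxcl16 led at 2.34 ± 0.26 (adjusted p = 0.000146), then Ccl2 at 2.22 ± 0.44 (0.00624), Cxcr4 at 1.20 ± 0.27 (0.0119), Cx3cl1 at 1.13 ± 0.22 (0.00491), Cxcl17 at 0.97 ± 0.27 (0.0318) and Cxcl9 at 0.77 ± 0.23 (0.0472). For each of these 6 all epithelial arrays lay above all stromal arrays, as they did for 23 of the 56 members and 17.6% of all tested. Cxcl14 at -1.89 ± 0.23 (adjusted p = 0.0003) and Ackr4 at -0.94 ± 0.12 (0.000314) were lower in epithelium. The seventh higher gene was Cxcl13, at 0.36 ± 0.11 (adjusted p = 0.0468), below the array median in all groups. Of the 14 leukocyte markers, 5 passed as lower and 1 as higher in epithelium under E2. All 4 smooth muscle markers and 3 of the 10 stromal markers passed as lower, and 3 of the 4 mesothelial markers as higher. The part of these markers in the layer differences under E2 was not tested.

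Cxcl16, Cxcl17, Cxcl9 and Cxcl14 passed under both treatments in the same direction. Cxcl2, with 7.20, 7.34 and 6.20 in epithelial E2 and 7.33, 7.34 and 6.62 in stromal E2 arrays, overlapped between the layers under E2, at -0.18 ± 0.33 (95% interval -0.91 to 0.54). Cxcl3 was likewise at -0.20 ± 0.26. Cxcl9 did not pass without any 1 of the 6 E2 arrays, with differences of 0.66 to 0.86 and adjusted p up to 0.148. Cxcl17 was 1.00 and 0.75 without epithelial replicates 2 and 3 and 0.95, 1.01 and 0.95 without stromal replicates 1, 2 and 3 (adjusted p = 0.0725, 0.117, 0.095, 0.0792 and 0.096). Over the 6 arrays left out Cxcl13 kept its call only without epithelial replicate 1, with differences of 0.25 to 0.44, and after quantile normalization it was 0.19 (adjusted p = 0.172).

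**Figure D5:**
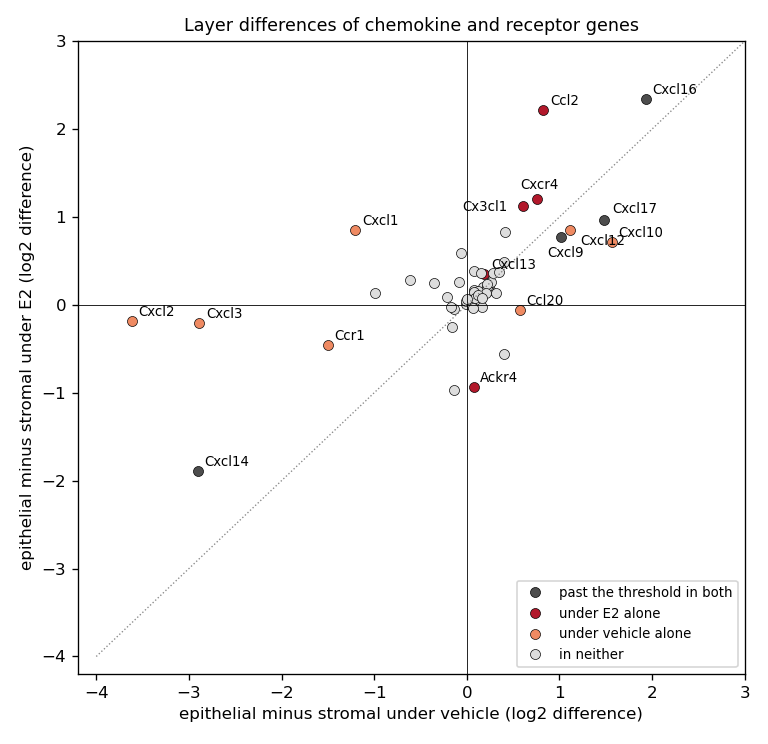
Epithelial minus stromal log2 difference under vehicle (horizontal axis) against the same difference under E2 (vertical axis) for the 56 genes, coloured by the treatment under which they passed; the dotted line marks equal differences. Cxcl2 and Cxcl3 lie at -3.62 and -2.89 under vehicle and close to 0 under E2, Cxcl14 and Cxcl16 are past the threshold in both, and Ccl2 stands at 2.22 under E2.

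Genes known to switch on chemokines were read from a list of 21 measured cytokines and receptors. In stroma 5 fell and 2 rose, and in epithelium 5 fell and 1 rose. Over all probe sets tested, 1.98% fell and 1.52% rose in stroma, and 1.12% fell and 1.77% rose in epithelium. Tnf, a main inducer of chemokines, had 7.07, 7.05 and 6.97 in stromal E2 arrays and 9.66, 8.98 and 10.19 in stromal vehicle arrays, a fall of -2.58 (adjusted p = 0.000971), and it fell by 1.47 on the log2 scale in epithelium (0.0306). Il1a had 7.34, 7.57 and 6.72 with E2 and 10.64, 9.77 and 10.53 with vehicle in stroma, a fall of -3.10 (adjusted p = 0.000153), and did not pass in epithelium at -0.83 (0.154). Il1b fell by 1.78 in stroma (adjusted p = 0.00915). The groups of these genes did not overlap in stroma. The receptor genes Il17ra and Il6ra rose there by 1.21 and 0.98 (0.00471 and 0.000809), while the growth factor genes Csf1 and Csf2 fell in epithelium by 1.07 and 2.02 (0.000378 and 0.0167).

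Of 22 genes of the NF-kappaB pathway, the main relay from these cytokines to chemokine genes, 8 fell and 0 rose in stroma, and 1 fell and 0 rose in epithelium. The share of all tested that fell was 1.98% in stroma and 1.12% in epithelium. The stromal falls included the inhibitor genes Nfkbie at -1.17 (adjusted p = 3.85e-05) and Nfkbia at -0.97 (0.00543). They also included Bcl3 at -0.85 (0.00195), the subunit Nfkb2 at -0.75 (0.000697), Birc3 at -1.11 (0.00115) and the receptor Tlr2 at -0.86 (0.00663). Several of these are themselves known targets of NF-kappaB. The list median was -0.32 in stroma and -0.01 in epithelium, against 0.03 and 0.03 over all tested. The E2 effect on Nfkbia differed between the layers by 1.41 (adjusted p = 0.0146). The part of these cytokine and pathway genes in the chemokine differences was not tested.

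Downstream of the receptors, 24 genes for G proteins, kinases, exchange factors and regulators were measured. Over all probe sets tested, 2.90% passed in epithelium and 3.50% in stroma. In epithelium limma called 0 of the 24, with 6 at an unadjusted p under 0.05, and in stroma 1 passed. That was Rgs16, a brake on G protein signalling, which had 9.45, 9.52 and 9.91 in stromal E2 arrays and 11.59, 11.16 and 11.58 in stromal vehicle arrays, a fall of -1.81 (adjusted p = 0.000372). Of 18 chemotactic proteins and receptors under other names, 2 rose and 2 fell in stroma, and 2 rose and 1 fell in epithelium. Among all tested, 1.52% rose and 1.98% fell in stroma, and 1.77% rose and 1.12% fell in epithelium. Ptgdr2, a prostaglandin D2 receptor that guides eosinophils and Th2 cells, rose by 3.21 in stroma (adjusted p = 9.46e-07) and 2.44 in epithelium (1.29e-05), and S1pr1, a receptor for sphingosine 1-phosphate, rose by 1.83 and 1.37 (0.000958 and 0.00776).

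Proteins that cut or display chemokines were measured by 20 genes, of which 6 fell and 0 rose in stroma and 2 fell and 0 rose in epithelium. The share of all tested that fell was 1.98% in stroma and 1.12% in epithelium. Mmp9, which trims several CXC ligands, had 9.74, 9.93 and 9.88 in stromal E2 arrays and 12.35, 12.03 and 12.10 in stromal vehicle arrays, a fall of -2.31 (adjusted p = 7.49e-05), with -1.67 in epithelium (0.00102). Adam17, a sheddase of Cx3cl1, fell in stroma by 0.51 (adjusted p = 0.0116), and Ext1, an enzyme of heparan sulfate synthesis, by 1.16 (0.000311).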

How the data were processed

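Log2 signals of 35556 probe sets on 12 arrays were used as deposited by the authors, made with RMA per the submitters' processing notes, whose version and settings are not given in the sources used here. Values ran from 3.20 to 14.0, no 2 arrays were identical and no further normalization or filter was applied. Symbols came from the platform annotation. Of the probe sets, 21789 had a single symbol, 21698 of them in the RefSeq table (GRCm38.p6), and 12146 had none. Neighbours and promoter windows came from RefSeq.

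Differences were tested with lmFit and eBayes of limma 3.58.1 in R 4.3.3 on all 12 arrays in 4 groups, two-sided, with 8 residual degrees of freedom and Benjamini-Hochberg adjustment over the 23410 probe sets with a symbol in each of 5 comparisons. The procedure was tested on simulated data. Members, gene lists and tests were chosen with earlier results of these data known.

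Values per array are given for members that passed for E2 and for a set of ligands and receptors named in advance, and between layers for up to 6 genes in each direction. Other genes carry single values, and lists name up to 6 passing genes. Pf4, Ccl3, Ccl6, Ccl9, Ccl7, Ccr1, Cxcr1, Cxcr6 and Cxcl13 were described after their values were seen.

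Replicate numbers came from the titles. Residuals of same-numbered epithelial and stromal vehicle arrays correlated at 0.175, 0.137 and 0.125, all over the criterion of 0.1, and the other comparisons did not meet it. The main fits took no block in any comparison, and the numbers entered as pairs only in the alternative with a block. Alternatives were other scalings, filters, priors and weights, the block, fewer arrays and, chosen after seeing the data, E2 replicates 1 and 2 averaged. The labels name no batch.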

Additional observations from a re-analysis of the deposited data

Results flagged for a closer look

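For 3 genes the E2 effect differed between the layers by the limma test of the difference itself. For Cxcl2 the epithelial effect minus the stromal effect was 3.43, with an E2 difference of -0.20 in epithelium and -3.63 in stroma. For Cxcl3 it was 2.69, from 0.02 in epithelium and -2.66 in stroma. For Ackr4 it was -1.01, from 0.09 in epithelium and 1.10 in stroma. Cxcl2 and Cxcl3 had epithelial vehicle means of 7.11 and 6.45, already near their stromal E2 means of 7.10 and 6.68. Whether a further fall could have been measured in epithelium was not tested. The leukocyte marker mean was 9.20 to 9.38 in stromal E2 arrays and 9.48 to 9.56 in stromal vehicle arrays, and the part of this in the 3 differences was not tested. No group had the 4 samples needed to look for single outlying arrays by a critical value.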

How the results depend on the processing

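The counts of members that passed depended on array weights and on how the E2 arrays were counted. With array weights, which ran from 0.120 to 6.69, 14 members passed for E2 in epithelium, 8 for the difference of effects, 21 between layers under vehicle and 26 under E2, against 3, 3, 11 and 9. With E2 replicates 1 and 2 averaged, 0 passed in epithelium (6 at an unadjusted p under 0.05 in limma), 0 for the difference (7) and 4 between layers under E2. With the 6 arrays compared alone, 0 passed in epithelium (8 unadjusted) and 7 between layers under vehicle, where 15.2% of all tested passed. Leaving out 1 array gave 1 to 4 in epithelium, 7 to 10 in stroma, 2 to 4 for the difference, 9 to 14 between layers under vehicle and 6 to 8 under E2. The other counts of members stayed within 1.5 times. Over all probe sets, the called number in epithelium was 678 and went to 4706 with weights, 49 with the 6 arrays alone, 89 with the averages, 438 with the block and 1044 after quantile normalization; for the difference it was 213, 4488 with weights, 12 with the averages, 126 with the block and 128 over all probe sets of the table. In stroma it was 820, against 4503, 2142 and 303 with weights, the 6 arrays alone and the averages, and between layers under E2 3184, against 11798 and 1420 with weights and averages. Leaving out 1 array gave 219 to 1634 in epithelium, 413 to 664 in stroma, 81 to 725 for the difference, 3385 to 7197 between layers under vehicle and 1953 to 2929 under E2. With the filter on low values, which left 12826 probe sets, the share called was 6.74% in epithelium, 6.63% in stroma, 2.11% for the difference, 36.4% between layers under vehicle and 24.9% under E2. Over all probe sets of the table these shares were 1.49%, 1.86%, 0.360%, 16.7% and 9.43%. The layers under vehicle gave 9867 with weights, against 5001.

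With the replicate number as a block, 3 members passed in epithelium, 8 in stroma (without Ccl2), 2 for the difference (without Ackr4, adjusted p = 0.0558) and 10 between layers under E2. Of all tested, 1.87%, 2.84%, 0.538% and 12.1% passed with the block in these comparisons, in the same order. Same-numbered residuals correlated at -0.419, 0.273 and 0.273 between epithelial E2 and vehicle, 0.198, -0.039 and 0.026 in stroma and -0.313, 0.229 and -0.063 between layers under E2.

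A tally was made over the members given with values per array except Cxcr6, and over those named between layers. It also took in Ccl3, Ccl6, Ccl7, Ccl9, Ccr1, Cxcr1 and Cxcl13 in the comparisons where they are described. In it 1179 values kept direction and call, 92 lost the call, 24 gained it and 26 changed sign, the last all of members that did not pass. In epithelium Ccr2 was -0.011, Cx3cr1 -0.23 and Cxcl3 -0.20 with weights, and Cxcl3 was -0.018 with the averages. Without 1 array in turn, Ackr4 ranged from -0.034 to 0.21, Ccr2 from -0.0070 to 0.073, Ccr6 from -0.080 to 0.12, Cx3cr1 from -0.18 to 0.33, Cxcl12 from -0.054 to 0.55, Cxcl2 from -0.43 to 0.16, Cxcl3 from -0.31 to 0.22 and Cxcr3 from -0.18 to 0.0014. In stroma Ccl20 was 0.12 with weights and ranged from -0.21 to 0.12 without 1 array, Cxcl14 ranged from -0.068 to 0.20, and Cxcr3 was 0.0012 after quantile normalization and ranged from -0.091 to 0.073. The causes were not tested. Limits are 3 arrays a group of unstated origin, unequal spread (median SD 0.158 and 0.185 in epithelial E2 and vehicle, 0.0804 and 0.0946 in stromal E2 and vehicle), and members at low signal.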
